A study of Mus musculus with 58 samples.

Results

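Retinal ganglion cells are the output neurons of the retina, and 9 genes widely used to mark them were followed over the day in control and diabetic mouse retinas. They were chosen by symbol among the 52459 genes of the count table, and each of the 9 had 1 row there. Rbpms encodes an RNA-binding protein used to count ganglion cells, Pou4f1 and Pou4f2 encode Brn3 transcription factors of ganglion cell differentiation and survival, and Sncg encodes gamma-synuclein. Nefl, Nefm and Nefh encode the light, medium and heavy neurofilament chains that fill large axons, Thy1 encodes a surface glycoprotein of neurons, and Slc17a6 encodes VGLUT2, the transporter that loads glutamate into the synaptic vesicles of ganglion cells.

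Ganglion cells collect the signals of bipolar and amacrine cells and send them to the brain through axons that form the optic nerve. They are a small part of the cells of the mouse retina, and several of their markers, Thy1, Slc17a6 and the neurofilaments among them, are also used by other neurons. Loss of these cells and of their axonal proteins is a long-standing question in diabetic retinopathy, and gene expression in the retina as a whole follows the light/dark cycle and the retinal clock.

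Each library came from the whole retina of a male mouse aged 4 months that had been kept from birth in 12 h of light and 12 h of dark. Diabetic animals were heterozygous for Ins2Akita on C57BL/6, an insulin gene mutation whose product misfolds in the beta cells of the pancreas and which makes males hyperglycemic, and controls were male littermates without hyperglycemia, labelled C57/BL/6. Retinas were taken at 6 zeitgeber times (ZT, hours after lights on) after perfusion with buffer, with 5, 6, 5, 5, 5 and 4 control libraries and 5, 5, 5, 4, 4 and 5 diabetic libraries at ZT1, ZT5, ZT9, ZT13, ZT17 and ZT21.

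Between 7773117 and 22147398 reads were counted on genes per library, and 19120 genes, all 9 ganglion cell genes among them, had a median above 4 normalized counts. Lens RNA (Cryaa) differed widely between libraries. The libraries also differed in how their counts followed the GC content of the transcripts, with slopes from -0.24 to 0.46 on the log2 scale per 10 points of GC. The mean slope was highest at ZT17 in both genotypes, at 0.139 in control and 0.101 in diabetic retinas, and rested on 3 libraries there. Control replicates 1 and 3 had slopes of 0.362 and 0.464 and diabetic replicate 3 of 0.415, while the other ZT17 slopes ran from -0.089 to -0.013 (control) and from -0.018 to 0.020 (diabetic). At the other time points the group means lay between -0.071 and 0.0015 in control retinas and between -0.021 and 0.017 in diabetic ones.

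In the Gencode M21 annotation of GRCm38, Rbpms lies at chr8:33782643-33929863 on the minus strand and Pou4f2 on the same chromosome and strand at chr8:78433010-78436645. Chromosome 14 holds Pou4f1 (chr14:104461676-104467999, minus strand), Sncg (chr14:34370274-34374789, minus strand), Nefl (chr14:68083863-68089095, plus strand) and Nefm (chr14:68082590-68124846, minus strand). Nefh lies at chr11:4938754-4948064 on the minus strand, Thy1 at chr9:44043384-44048579 on the plus strand and Slc17a6 at chr7:51622006-51671119 on the plus strand. All are protein-coding, and all values are sums over their exons. Nefl lies within the annotated Nefm gene on the other strand and shares 1108 exonic bases with it, 32.8% of the exonic length of Nefl and 19.2% of that of Nefm, and since the strand setting of the counting is not given in the sources used here, the split of reads between them is uncertain.

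RefSeq promoter sequences on GRCm38.p6 were at hand for 4 of the 9 genes, Pou4f1, Pou4f2, Sncg and Slc17a6. The 250 bases before the start site are shown for 3 of them. Pou4f1 and Pou4f2 are paralogs whose levels moved together across libraries, while Slc17a6 followed the other genes least before any correction for GC content and length. They lie at chr14:104468000-104468249 (minus strand), chr8:78436648-78436897 (minus strand) and chr7:51621580-51621829 (plus strand), the last of them before the upstream of the 2 listed starts of Slc17a6. Capitals mark CG dinucleotides.
Pou4f1: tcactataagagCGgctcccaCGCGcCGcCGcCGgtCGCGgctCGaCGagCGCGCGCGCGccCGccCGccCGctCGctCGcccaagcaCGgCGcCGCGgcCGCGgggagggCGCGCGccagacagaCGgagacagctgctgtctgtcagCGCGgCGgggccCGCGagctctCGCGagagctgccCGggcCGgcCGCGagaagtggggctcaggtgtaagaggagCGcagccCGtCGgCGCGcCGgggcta
Pou4f2: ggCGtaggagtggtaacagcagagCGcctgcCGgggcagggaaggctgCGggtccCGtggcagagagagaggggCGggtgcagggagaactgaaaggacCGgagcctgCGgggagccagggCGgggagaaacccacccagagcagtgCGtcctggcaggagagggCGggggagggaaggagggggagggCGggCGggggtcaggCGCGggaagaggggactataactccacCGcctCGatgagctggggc
Slc17a6: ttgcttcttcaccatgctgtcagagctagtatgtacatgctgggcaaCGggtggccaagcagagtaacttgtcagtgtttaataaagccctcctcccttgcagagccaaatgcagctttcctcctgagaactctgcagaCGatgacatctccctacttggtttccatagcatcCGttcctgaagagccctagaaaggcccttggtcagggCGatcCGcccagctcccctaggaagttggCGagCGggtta

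These windows held 47, 17 and 7 CG dinucleotides, beside a median of 6 over all 32851 promoters of the same length. None of them, nor those of Sncg and the downstream Slc17a6 start, held the E-box CACGTG, the palindromic binding site of the core clock activators, which stood in 6.02% of all promoters.

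The ganglion cell genes spanned a wide range of levels, and the order of the levels was much the same in every library. Levels were taken per kilobase of total exonic length. Among others, Rbpms (6556 against 2547 bases), Nefm (5782 against 3680) and Thy1 (2995 against 1735) have an exonic length above that of their longest transcript. The places of these genes in the order, and the ratio of Nefm to Nefl, depend on that choice of length. Per kilobase of exon, Nefl had the highest level, with a lowest, median and highest value of 1168, 1486 and 1911 normalized counts per kilobase over the 58 libraries. Sncg (360, 684 and 1162) and Thy1 (473, 620 and 960) followed, with overlapping ranges, and Sncg lay above Thy1 in 45 of 58 libraries. Nefh (191, 258 and 385) and Nefm (170, 257 and 386) were not in a fixed order, since Nefh was the higher in 27 of 58 libraries.

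Slc17a6 (109, 152 and 183 normalized counts per kilobase) lay below Nefm in all 58 libraries, and Pou4f1 (53.4, 93.8 and 130.1) below Slc17a6 in all 58. Rbpms (38.9, 59.0 and 82.4) lay below Pou4f1 in all 58 libraries, and Pou4f2 (26.7, 43.9 and 58.9), the lowest of the 9, below Rbpms in 57. The light chain thus stood far above the other chains, with 0.171 ± 0.024 (SD, n = 58) of its level per length for Nefm and 0.172 ± 0.027 for Nefh. This ratio was 0.170 ± 0.026 for Nefm and 0.178 ± 0.030 for Nefh in the 30 control libraries, and 0.171 ± 0.023 and 0.166 ± 0.024 in the 28 diabetic ones. Together the 9 genes took 0.0817% ± 0.0078 of the counted reads in control retinas and 0.0845% ± 0.0090 in diabetic ones.

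**Figure D1:**
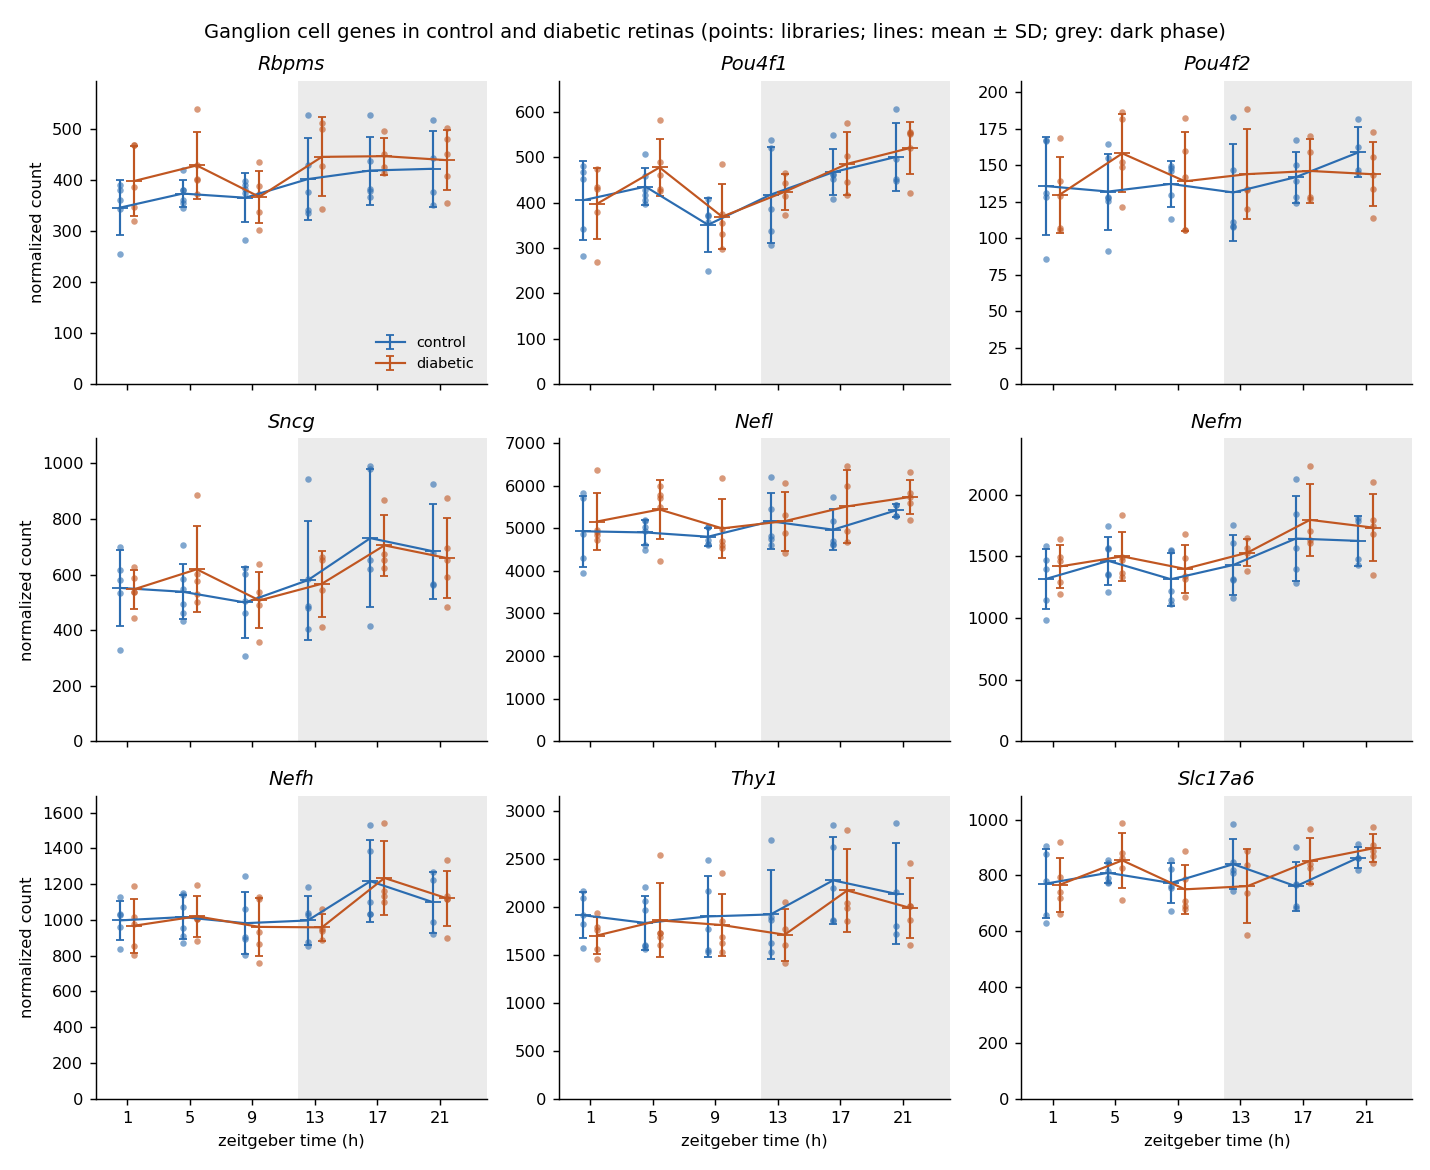
DESeq2-normalized counts (y axis, from 0) of the 9 ganglion cell genes at each zeitgeber time (x axis, h), with 1 point per library, lines for the mean and bars for the SD of each group of 4 to 6 libraries, and the dark phase in grey. Control and diabetic libraries overlap at every time point in all 9 panels, and the means are highest at ZT17 or ZT21 in all panels but that of Pou4f2 in diabetic retinas.

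The first comparison asked whether diabetes changed the level of ganglion cell transcripts. None of the 9 genes differed between genotypes over all time points (edgeR quasi-likelihood test, adjusted p from 0.268 to 0.978), beside 2.99% of all genes called. The estimated changes lay between 0.940-fold for Thy1 and 1.08-fold for Rbpms, and the 95% intervals of all 9 lay between 0.860-fold and 1.17-fold. In bulk retina, fewer ganglion cells and less RNA per cell cannot be told apart.

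Rbpms had a mean of 386 ± 60.7 normalized counts (SD, n = 30) in control and 419 ± 62.7 (n = 28) in diabetic retinas, a log2 fold change of 0.12 (SE 0.06, unadjusted p = 0.0416, adjusted p = 0.296 by edgeR). Nefl had 5012 ± 499 and 5333 ± 659, a log2 fold change of 0.09 (SE 0.04, unadjusted p = 0.0330, adjusted p = 0.268 by edgeR). These were the 2 of 9 genes with an unadjusted p under 0.05, as were 15.5% of all genes. DESeq2 also called 0 of the 9, and so did edgeR with the GC and length trend of each library removed (smallest adjusted p = 0.186).

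The other neurofilament chains, which assemble with Nefl, had log2 fold changes of 0.09 (SE 0.06) for Nefm and -0.01 (SE 0.06) for Nefh. The transcription factors Pou4f1 and Pou4f2 had 0.06 (SE 0.07) and 0.04 (SE 0.07), Slc17a6 had 0.02 (SE 0.04) and Sncg 0.01 (SE 0.09). The lowest estimate was that of Thy1, at -0.09 (SE 0.07, adjusted p = 0.574 by edgeR), with 1989 ± 396 normalized counts in control and 1871 ± 335 in diabetic retinas. The signs of the 3 smallest estimates, for Sncg, Nefh and Slc17a6, and that of Pou4f2 turned when 1 library or 1 time point was left out.

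At single time points, 0 of the 54 tests of the 9 genes passed (edgeR, smallest adjusted p = 0.712), and 0 had an unadjusted p under 0.05, as had 5.5%, 6.15%, 4.49%, 4.46%, 8.82% and 4.67% of all genes at ZT1, ZT5, ZT9, ZT13, ZT17 and ZT21. Among all genes, 0.0105%, 0.0209%, 0.00523%, 0%, 0.167% and 0% were called at ZT1, ZT5, ZT9, ZT13, ZT17 and ZT21. DESeq2 also called 0 of the 54. The log2 fold changes ran from -0.16 (Thy1 at ZT13) to 0.24 (Pou4f2 at ZT5), with SE from 0.09 to 0.22.

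The smallest unadjusted p-values were those of Rbpms at ZT1 (0.104) and ZT5 (0.113) and of Slc17a6 at ZT17 (0.121). At ZT1, Rbpms stood at 255, 343, 360, 381 and 391 normalized counts in the control libraries and at 320, 348, 386, 468 and 469 in the diabetic ones. The diabetic libraries reached higher, but 3 of them lay within the control range. No gene of the 9 had groups that did not overlap at any time point, beside 0.91%, 1.1%, 0.774%, 1.07%, 1.97% and 2.23% of all genes at ZT1, ZT5, ZT9, ZT13, ZT17 and ZT21.

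**Figure D2:**
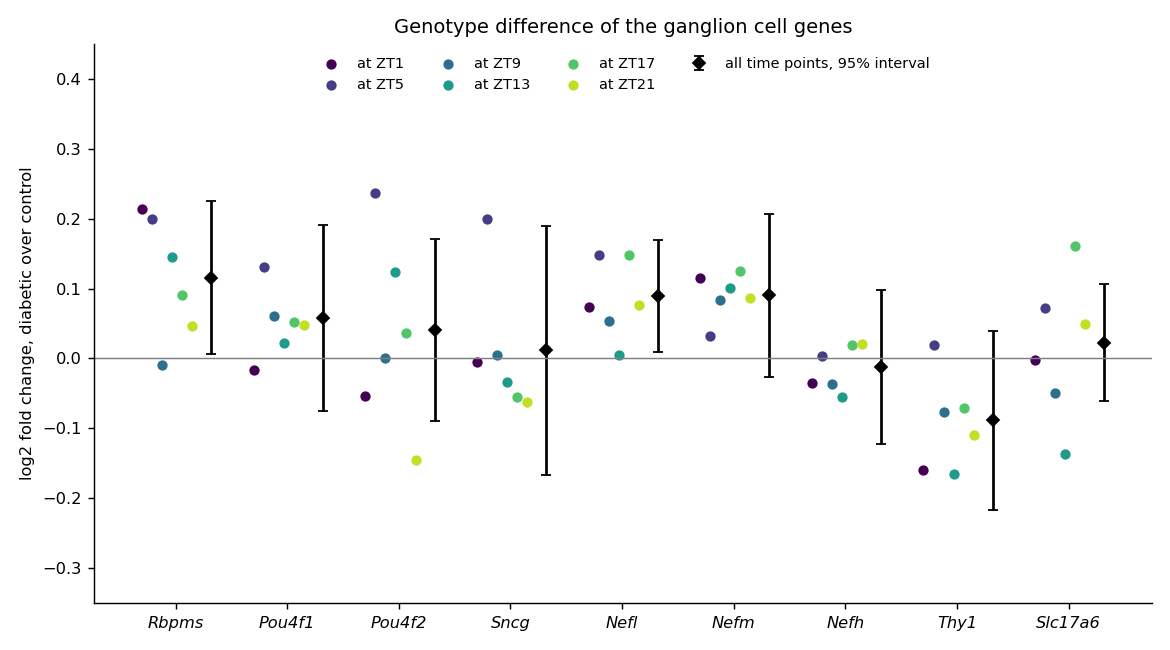
Log2 fold change of diabetic over control retinas (y axis) for the 9 ganglion cell genes (x axis), with coloured points for single time points and black diamonds for all time points with their 95% interval. All diamonds lie between -0.09 and 0.12, and the 2 intervals that leave out 0 are those of Rbpms and Nefl, whose adjusted p were 0.296 and 0.268.

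The second comparison asked whether ganglion cell transcripts changed over the day. Tested for any difference among the 6 time points, 0 of the 9 genes passed in control retinas (edgeR), beside 9.06% of all genes, and 0 in diabetic retinas, beside 10.2%. Unadjusted p-values under 0.05 were found for 1 gene of the 9 in controls, beside 21.8% of all genes, and for 2 in diabetic animals, Pou4f1 and Nefh, beside 22.3%. Between time points only edgeR was run. Pou4f1 came closest in both genotypes, with an adjusted p of 0.163 in control and of 0.0795 in diabetic retinas by edgeR (unadjusted 0.0274 and 0.00997).

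At ZT9, Pou4f1 stood at 250, 357, 370, 372 and 408 normalized counts in control libraries and at 298, 331, 355, 376 and 486 in diabetic ones, the lowest means of the day in both. At ZT21 it stood at 447, 452, 497 and 608 in control libraries and at 421, 520, 551, 554 and 557 in diabetic ones, the highest means of the day. The ZT9 and ZT21 libraries did not overlap in control retinas, and in diabetic retinas 1 library at ZT9 and 1 at ZT21 crossed. These time points were picked for their lowest and highest means, which favours a separation, and no share over all genes was taken. The ratio of the highest to the lowest mean was 1.43 in control and 1.41 in diabetic retinas.

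With the GC and length trend of each library removed, an alternative chosen after seeing the data, 3 of the 9 genes differed among time points in diabetic retinas, Pou4f1 (adjusted p = 0.0332 by edgeR), Nefh (0.0302) and Slc17a6 (0.0419), beside 16.8% of all genes, and 0 in control retinas, beside 12.51%. Leaving out diabetic replicate 2 at ZT21 or replicate 3 at ZT9 also brought Pou4f1 past the threshold, at adjusted p = 0.0452 and 0.0224 by edgeR. So did an edgeR fit with the replicate number as a block (adjusted p = 0.0477). The difference between genotypes in the time course was tested on its own and is given further on.

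The criterion for a 24 h rhythm followed the study's, an unadjusted empirical JTK_CYCLE p under 0.05, which comes from permutation of series, with a minimum fold, read here as a highest library more than 25% above the lowest. With the fold taken between time point means instead, 13.2% of all genes were called in controls and 14.2% with diabetes, while the counts of the 9 genes were 0 and 2 by either reading. By it, 0 of the 9 genes were rhythmic in control retinas (smallest permutation p = 0.0601, for Pou4f1), beside 21.8% of all genes. In diabetic retinas 2 of the 9 were rhythmic, Nefm (permutation p = 0.0166) and Sncg (p = 0.0491), beside 23.9% of all genes, a share close to that of the 9. By an edgeR cosine model, 2 of the 9 had an unadjusted p under 0.05 in control retinas (Pou4f1 and Sncg), beside 25.4% of all genes, and 3 in diabetic retinas (Pou4f1, Nefm and Nefh), beside 26.5%, so the counts in the genotypes depend on the test. Adjusted over all genes, 0 of the 9 passed in controls (smallest adjusted p = 0.246), beside 8.43% of all genes, and 0 in diabetic animals (smallest adjusted p = 0.105, for Nefm), beside 9.89%. Nefm passed after adjustment without diabetic replicate 4 at ZT5 or replicate 3 at ZT9 (lowest adjusted p = 0.0409) and by the edgeR cosine model (adjusted p = 0.0487).

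Nefm, the medium chain, stood at 1167, 1319, 1343, 1483 and 1676 normalized counts in the diabetic libraries at ZT9 and at 1609, 1633, 1706 and 2232 at ZT17. All but 1 of the ZT9 libraries lay below all of the ZT17 libraries, a description of the time points with its lowest and highest means. Its fitted 24 h cosine peaked at ZT18.3 (SE 1.2 h) with an amplitude of 11.6% (SE 3.7) of its mean. The control libraries gave a peak at ZT18.6 (SE 1.9 h) and an amplitude of 9.06% (SE 4.4), with a permutation p of 0.144. The rhythm call of Nefm held with each of the 28 diabetic libraries left out in turn (permutation p from 0.0043 to 0.0457) and was lost without ZT13 (p = 0.0516), ZT17 (p = 0.0868) or ZT21 (p = 0.084).

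Sncg, whose protein is abundant in ganglion cell bodies and axons, stood at 357, 491, 514, 537 and 636 normalized counts at ZT9 and at 623, 653, 675 and 868 at ZT17 in diabetic libraries. In control libraries it stood at 307, 460, 503, 603 and 624 at ZT9 and at 414, 619, 652, 979 and 990 at ZT17. Its call in diabetic retinas held in 6 of the 28 fits that left out 1 library (permutation p from 0.0131 to 0.114) and, of the fits that left out 1 time point, in the one without ZT5 (p = 0.0204, against 0.0516 to 0.283 in the others). Its fitted amplitude was the highest of the 9 in control retinas, at 17.9% (SE 7.1), where the permutation p was 0.181, and was 11% (SE 5.4) with diabetes.

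The fitted peaks lay in the dark phase for 9 of 9 genes in control retinas, between ZT16.9 and ZT20.3, and for 8 of 9 in diabetic retinas, between ZT18.1 and ZT21.1, beside 47.2% and 49.1% of all genes. The exception was Pou4f2 in diabetic retinas, at ZT9.6 with an SE of 9.6 h and an amplitude of 2.05% (SE 5.0). These peaks are a description, since the 9 genes share libraries and moved together in them. The amplitudes of the fitted cosines had a median of 8.67% for control and 7.26% for diabetic libraries, beside 7.07% and 7.26% over all genes.

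**Figure D3:**
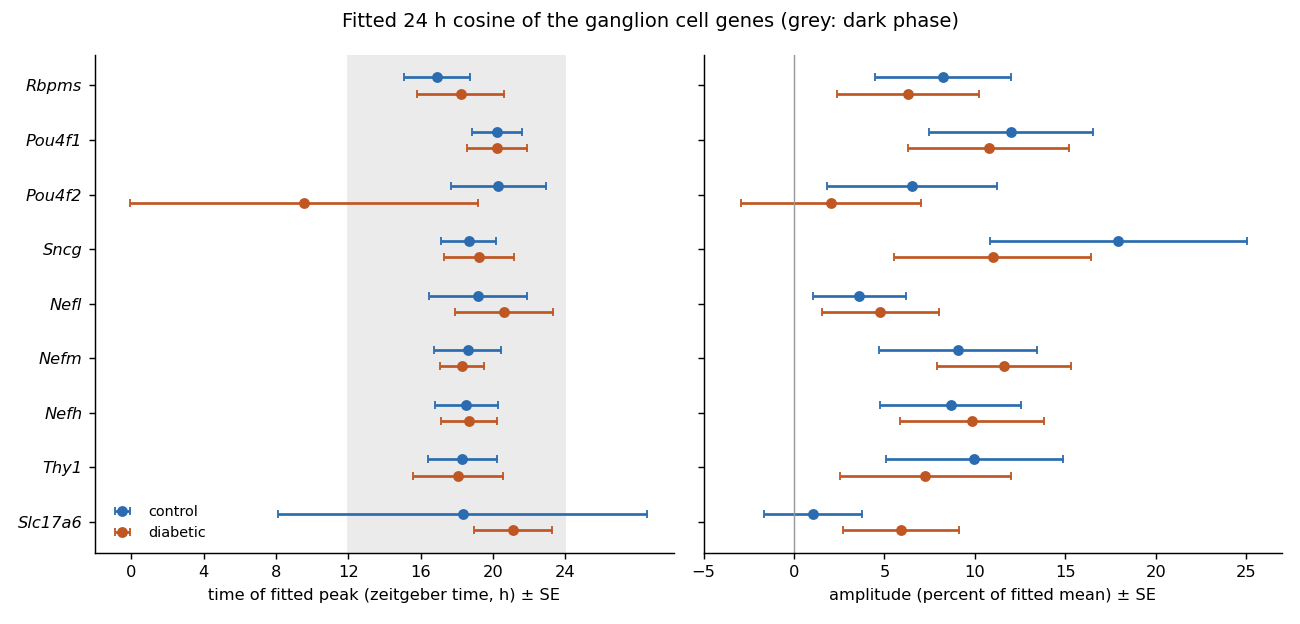
Time of the fitted 24 h peak (left, zeitgeber time in h) and amplitude as a percent of the fitted mean (right) for the 9 ganglion cell genes, with bars for the SE, in control and diabetic retinas. Most peaks lie between ZT16.9 and ZT21.1 in the dark phase, and the widest bars belong to Slc17a6 in control and Pou4f2 in diabetic retinas, whose amplitudes were 1.04% and 2.05%.

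ZT17 was the time of the highest mean for Sncg, Nefm, Nefh and Thy1 in both genotypes, and it was also the time at which the mean GC slope was highest, through 2 of 5 control and 1 of 4 diabetic libraries. Without them, control ZT17 had a mean slope of -0.043. Diabetic ZT17 had one of -0.0033, no longer above ZT21 (0.017). These 4 genes had the most GC-rich transcripts of the 9, between 55.8% for Thy1 and 58.4% for Nefh, beside a median of 49.0% over all genes. With the GC and length trends removed, the ratio of the highest to the lowest mean went from 1.46 to 1.35 for Sncg, from 1.251 to 1.231 for Nefm, from 1.24 to 1.16 for Nefh and from 1.24 to 1.14 for Thy1 in control retinas. In diabetic retinas it went from 1.39 to 1.32 for Sncg, from 1.28 to 1.22 for Nefm, from 1.29 to 1.21 for Nefh and from 1.28 to 1.22 for Thy1.

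After this correction the highest mean of Nefm lay at ZT21 in both genotypes and that of Sncg at ZT21 in control retinas, while Nefh and Thy1 stayed highest at ZT17. The rhythm criterion then called 4 of the 9 genes in diabetic retinas, Nefm (permutation p = 0.00726), Nefh (p = 0.0215), Sncg (p = 0.0390) and Slc17a6 (p = 0.0486), beside 27.7% of all genes. It called 0 in control retinas, beside 24.5% of all genes, and no adjusted p of the 9 was under 0.05 (smallest 0.0503, for Nefm).

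The amplitude and phase of the rhythm were then compared between genotypes in 1 model. The interaction of genotype with the 24 h cosine was not past the threshold for any of the 9 genes (edgeR, p from 0.461 to 0.977, adjusted p = 1.00), and 0 had an unadjusted p under 0.05. Over all genes 0 of 19120 passed, with 657 (3.44%) at an unadjusted p under 0.05, and limma on log2 CPM (counts scaled to the size of the library) also called 0 of the 9. The rhythm calls of Nefm and Sncg in diabetic retinas were therefore not shown to differ from control retinas.

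Other genes of the same cells were read from 3 lists. Of 25 further ganglion cell genes, 1 was higher in diabetic retinas over all time points and 0 lower (edgeR, with 4 at an unadjusted p under 0.05 and the same count of 1 by DESeq2), beside 1.58% and 1.41% of all genes called and 15.5% at an unadjusted p under 0.05, with a median log2 fold change of 0.03 beside 0.00 over all genes. The gene was Foxp2, a transcription factor of a subset of ganglion cells with small somata, which had 52.2 ± 11.3 normalized counts (n = 30) in control and 63.9 ± 10.99 (n = 28) in diabetic retinas, a log2 fold change of 0.29 (SE 0.08, adjusted p = 0.0180 by edgeR). Its call held in each of the 58 fits without 1 library and was lost without ZT1 (adjusted p = 0.0740), ZT5 (0.0511) or ZT21 (0.0775).

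By the rhythm criterion 9 of these 25 genes were called in control and 6 in diabetic retinas, 3 of them in both, beside 21.8% and 23.9% of all genes, and 2 and 1 passed after adjustment, beside 8.43% and 9.89%. Among them were Jam2, an adhesion molecule (adjusted p = 0.00981, peak at ZT18.0), in control retinas, and Stmn2, a tubulin-binding protein of growing axons (adjusted p = 0.0352, peak at ZT18.7), in diabetic retinas. Jam2 had a permutation p of 0.502 in diabetic and Stmn2 of 0.209 in control retinas. Neither gene passed the interaction test between genotypes, as no gene did.

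Of 20 neurofilament and axon cytoskeleton genes beside the members, 0 differed between genotypes (edgeR, 3 at an unadjusted p under 0.05, and 0 by DESeq2), beside the same shares of 2.99% and 15.5% of all genes, with log2 fold changes from -0.07 to 0.12. By the rhythm criterion 10 were called in control and 11 in diabetic retinas, 8 of them in both, beside 21.8% and 23.9% of all genes. Their fitted peak lay between ZT16 and ZT22 for 9 of the 10 and 10 of the 11, beside 43.1% and 40.1% of all genes called rhythmic. In the same window lay 8 of the 9 control and 3 of the 6 diabetic calls among the further ganglion cell genes, and 2 of 2 and 2 of 5 among the injury genes described next. The lists share genes called in control retinas and counted in both lists. Tubb3 is a ganglion cell and a cytoskeleton gene there, and Gap43 a ganglion cell and an injury gene. After adjustment over all genes, 4 of the 20 cytoskeleton genes passed in control and 3 in diabetic retinas, beside 8.43% and 9.89%. The spectrin Sptbn1 of the submembrane skeleton passed in both (adjusted p = 0.00267 and 0.0202, peaks at ZT18.7 and ZT18.7), and so did the alpha-tubulin Tuba4a (0.00981 and 0.0132, peaks at ZT18.9 and ZT17.4) and the dynein heavy chain Dync1h1, the motor of retrograde axonal transport (0.0285 and 0.0352, peaks at ZT19.6 and ZT18.8).

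Ank2, an ankyrin that tethers the spectrin skeleton, passed in control retinas (adjusted p = 0.00238, peak at ZT19.2), with an adjusted p of 0.0627 in diabetic retinas. These genes are used by many retinal neurons, so their values are those of the whole retina. Ina, the internexin chain that assembles with the neurofilament triplet, stood at 0.289 ± 0.038 (n = 58) of the Nefl level per length. It was called in control retinas (permutation p = 0.00785, peak at ZT19.0) without passing after adjustment (adjusted p = 0.0730). Ina is named because of its role, after its values were seen.

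Of 16 genes of the injury response of ganglion cells, 14 passed the filter on low counts and 0 differed between genotypes (edgeR, 4 at an unadjusted p under 0.05, and 0 by DESeq2), beside 2.99% of all genes called and 15.5% at an unadjusted p under 0.05, with a median log2 fold change of 0.06. By the rhythm criterion 2 were called in control and 5 in diabetic retinas, beside 21.8% and 23.9% of all genes. After adjustment 0 passed in control and 1 in diabetic retinas, beside 8.43% and 9.89%. The gene was Map3k12, the dual leucine zipper kinase that relays axon injury to the cell body (adjusted p = 0.00577, peak at ZT23.4, amplitude 5.92%), and it had a permutation p of 0.181 in control retinas.

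The third question was whether the 9 genes varied together beyond genotype and time. Each gene's log2 CPM were taken as deviations from the mean of its own group of genotype and time point, and the 58 deviations were correlated between genes, with p from 100000 permutations within groups and adjusted over the 36 pairs. The deviations had an SD between 0.14 for Slc17a6 and 0.32 for Sncg on the log2 scale, beside a median of 0.19 over all genes. The correlation was positive for 35 of the 36 pairs, with a median r of 0.671, and 30 pairs passed the threshold by Pearson's r and 30 by Spearman's rho (permutation test, two-sided). The share of all gene pairs that would pass was not computed, so these counts are not shown to be particular to the 9 genes.

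Sncg and Thy1 were the most closely related pair (r = 0.885, rho = 0.906, adjusted p = 1.71e-05 and 1.64e-05 from the smallest p that the permutations can give, r = 0.879 without the 2 farthest libraries). The heavy and medium neurofilament chains followed (r = 0.885, rho = 0.872), then Nefh with Thy1 (r = 0.869, rho = 0.870). The paralogs Pou4f1 and Pou4f2 were related with r = 0.757 (rho = 0.754), and Pou4f1 with Rbpms with r = 0.815 (rho = 0.809). Within the genotypes, Sncg and Thy1 gave r = 0.874 in control and 0.917 in diabetic libraries, and Pou4f1 and Rbpms 0.904 and 0.703.

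Slc17a6 and Nefl stood apart from this group and were close to each other. Slc17a6 and Nefl were related with r = 0.850 (rho = 0.782, adjusted p = 1.71e-05 and 1.64e-05, r = 0.829 without the 2 farthest libraries), with 0.808 in control and 0.884 in diabetic libraries. Slc17a6 with Thy1 gave r = -0.10 (rho = -0.046, adjusted p = 0.529 and 0.794 by permutation), with Rbpms r = 0.010 and with Nefh r = 0.043. Nefl was related less closely to its partner chains, with r = 0.501 for Nefm and 0.357 for Nefh, and its r with Thy1 was 0.167 (rho = 0.263, adjusted p = 0.259 and 0.0651 by permutation).

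The GC slope of a library moved with 6 of the 9 genes, and little or not at all with Pou4f2 and Nefl. The slope was fitted to the same log2 CPM values, those of the 9 genes among them. The share of all genes that moved with it was not computed, so this count is a description. Over the 58 libraries, the deviation of the slope from its group mean was correlated with the deviation of Thy1 (r = 0.831, rho = 0.823), Nefh (r = 0.831, rho = 0.809), Nefm (r = 0.737, rho = 0.717), Sncg (r = 0.714, rho = 0.730), Rbpms (r = 0.680, rho = 0.685) and Pou4f1 (r = 0.512, rho = 0.541), all with an adjusted p of 0.00027 or less over the 9 genes (permutation test, two-sided). Pou4f2 had r = 0.268 (rho = 0.279, adjusted p = 0.0492 and 0.0537 by permutation), and Nefl r = 0.019 (rho = 0.078, adjusted p = 0.896 and 0.599 by permutation). Slc17a6, whose transcript has the lowest GC content of the 9 at 42.9%, had r = -0.34 (rho = -0.31, adjusted p = 0.0247 and 0.0456 by permutation), which went to -0.26 without the 2 libraries with the most extreme slopes. Without those 2 libraries r was 0.816 for Thy1, 0.804 for Nefh, 0.708 for Nefm, 0.703 for Sncg, 0.680 for Rbpms, 0.514 for Pou4f1, 0.277 for Pou4f2 and 0.028 for Nefl.

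**Figure D4:**
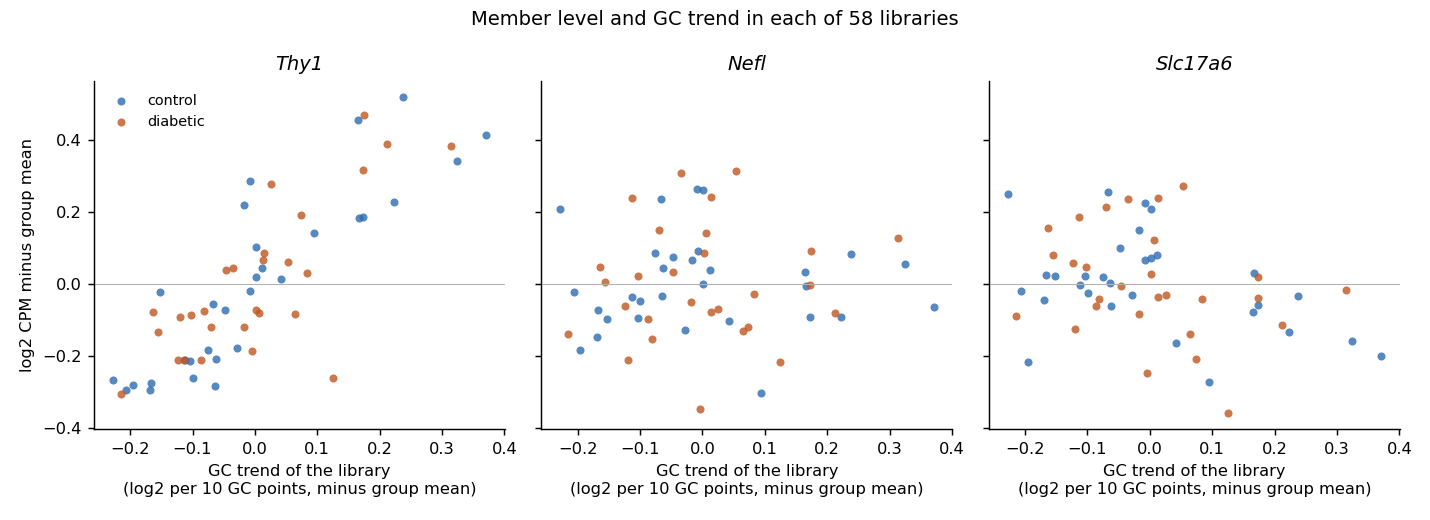
Deviation of Thy1, Nefl and Slc17a6 from the group mean (y axis, log2 CPM) against the deviation of the library's GC slope (x axis, log2 per 10 points of GC), with 1 point for each of the 58 libraries. Thy1 climbs with the slope (r = 0.831), Nefl shows no trend (r = 0.019) and Slc17a6 a weak downward one (r = -0.34).

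With the GC and length trend of each library removed, the correlation was positive for all 36 pairs, with a lowest r of 0.210, a median of 0.636 and a highest of 0.827. The pairs of Slc17a6 moved most, from 0.043 to 0.668 with Nefh, from -0.10 to 0.467 with Thy1, from 0.219 to 0.750 with Nefm and from 0.010 to 0.429 with Rbpms. Slc17a6 and Nefl stayed at 0.827, Sncg and Thy1 at 0.811 and Pou4f1 and Rbpms at 0.788. Nefl and Thy1 were the pair with the lowest r after the correction.

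**Figure D5:**
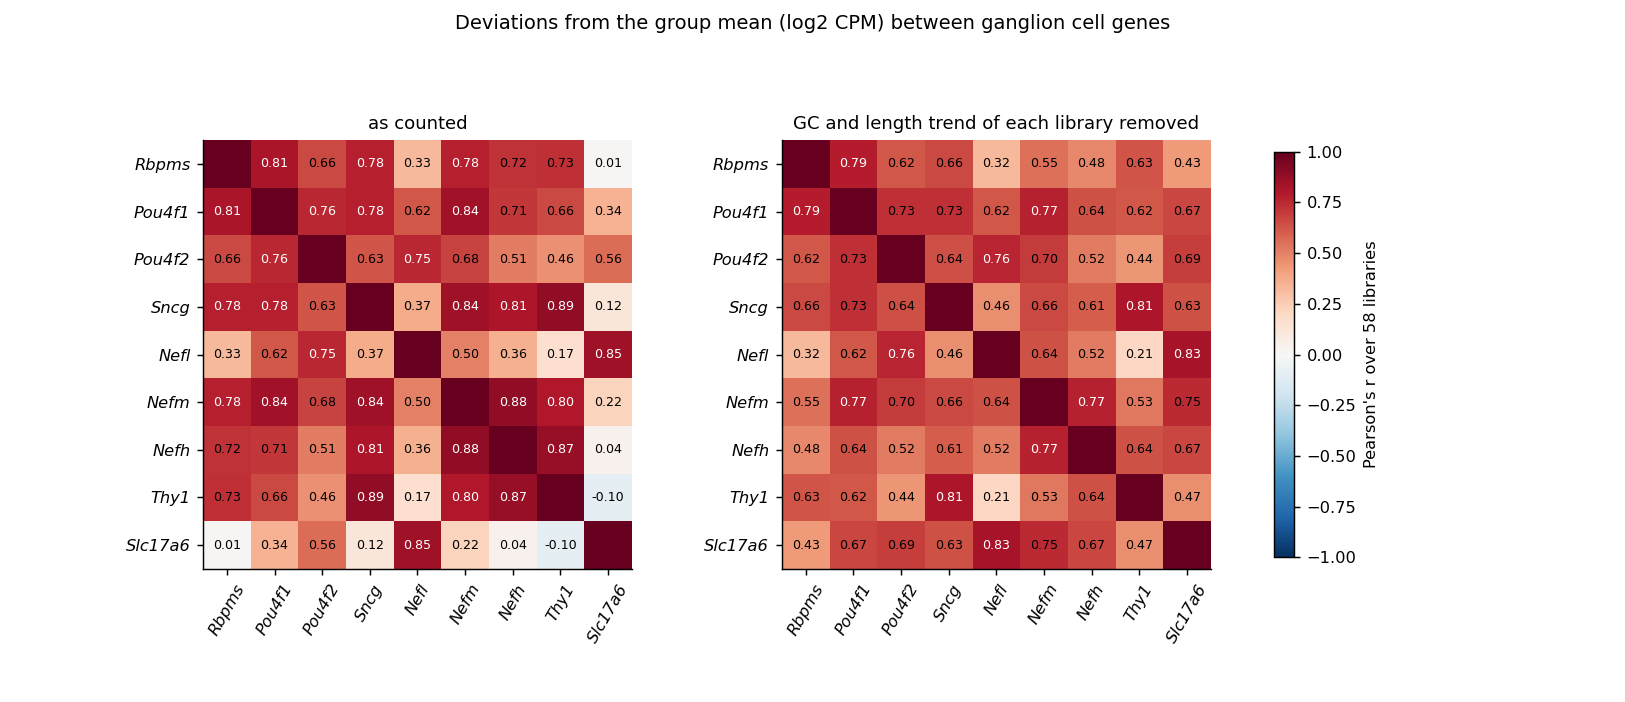
Pearson's r over 58 libraries (colour and printed value) between the deviations of the 9 ganglion cell genes (both axes) from their group means, as counted on the left and with the GC and length trend of each library removed on the right. The pale row and column of Slc17a6 on the left, with values from -0.10 to 0.85, become red on the right, with values from 0.43 to 0.83.

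Among the genes whose deviations were most like the mean of the 9 were Calb2 (r = 0.951, rho = 0.949), Cplx1 (0.945, 0.935), Tusc5 (0.923, 0.914), Cplx2 (0.918, 0.92), Prkar1b (0.911, 0.916), Sult4a1 (0.910, 0.913) and Tagln3 (0.908, 0.914), over 58 libraries. Calb2 encodes calretinin, a calcium-binding protein of amacrine and ganglion cells, Cplx1 and Cplx2 encode complexins, which act in synaptic vesicle release, and Prkar1b encodes a regulatory subunit of protein kinase A. Calb2 gave r = 0.971 in control and 0.922 in diabetic libraries, and 0.929 with the GC and length trends removed. The genes least like them were 2410089E03Rik (r = -0.88, rho = -0.87), Nktr (-0.87, -0.87) and Nsmaf (-0.86, -0.86), of which Nktr, with a GC content of 37.0%, went to -0.21 with the trends removed.

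Markers of other cells followed the mean of the 9 to different extents. The median r was 0.650 over 8 amacrine cell markers, 0.543 over the 25 further ganglion cell genes and 0.551 over the 20 cytoskeleton genes, beside -0.02 over all 19120 genes. It was 0.470 over 6 Muller glia markers, 0.332 over 7 rod markers, 0.323 over 4 astrocyte markers, 0.308 over the 14 injury genes, 0.225 over 4 horizontal cell markers, 0.214 over 6 microglia markers, 0.209 over 7 pigment epithelium markers, 0.188 over 5 endothelium and 0.180 over 4 pericyte markers, 0.059 over 7 bipolar cell markers and -0.019 over 7 cone markers. With the GC and length trends removed, it was 0.643 for the further ganglion cell genes, 0.541 for amacrine cells, 0.475 for horizontal cells, 0.452 for the cytoskeleton genes, 0.362 for Muller glia, 0.275 for bipolar cells, 0.224 for pigment epithelium, 0.151 for rods, 0.146 for astrocytes, 0.139 for cones, 0.102 for the injury genes, 0.060 for endothelium, 0.039 for microglia and 0.022 for pericytes. The part of cell composition in the joint variation of the 9 genes was not tested.

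Between the genotypes, 1 of 8 amacrine markers was higher in diabetic retinas (Chat, log2 fold change 0.20, SE 0.06, adjusted p = 0.0404 by edgeR), as was 1 of 3 measured oligodendrocyte markers (Mbp, 0.16, SE 0.04, adjusted p = 0.0247 by edgeR), while 3 of 7 cone markers and 1 of 6 microglia markers were lower, beside 1.58% of all genes called higher and 1.41% called lower. The lens gene Cryaa was lower by edgeR (log2 fold change -5.01) and not by DESeq2 (0.08). The call of Chat was lost in 27 of the 58 fits without 1 library, that of the microglia marker Cx3cr1 in 29 and that of the cone marker Pde6c in 18. Mbp was lost with no filter on low counts (adjusted p = 0.0509) and without ZT5, ZT9, ZT17 or ZT21 (adjusted p from 0.0554 to 0.195, with a log2 fold change of 0.10 without ZT21). The calls of the other cone genes, Pde6h (log2 fold change -0.14) and Gnat2 (-0.12), held in each of the 58 fits without 1 library and were lost without ZT1 or without ZT5. The summed level of the 6 oligodendrocyte markers, which belong to the myelinated optic nerve, ran from 49.0 to 62.5 CPM in control and from 52.4 to 112 in diabetic libraries, with Mog and Mobp at a median of 0. The median r of the 3 measured markers with the mean of the 9 ganglion cell genes was 0.195, and -0.041 with the GC and length trends removed.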

How the data were processed

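Total RNA of single mouse retinas was depleted of ribosomal RNA and sequenced in 58 libraries. The authors aligned the reads with STAR 2.7.4a to GRCm38.p5, counted them per gene of Gencode M15 with HTSeq 0.11.1, and the deposited values are raw read counts, not normalized, with a column per library matched to its genotype and time point by its title. FastQC and DESeq2 1.26.0 are also named in the submitters' processing notes. Every row names a gene.

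Genes with a median above 4 DESeq2-normalized counts over all libraries were kept. Genotypes and time points were compared with edgeR 4.0.16 (quasi-likelihood, TMM factors, Benjamini-Hochberg over 19120 genes, threshold 0.05) in R 4.3.3, with DESeq2 1.42.0 and limma 3.58.1 as alternatives. The empirical JTK_CYCLE test was re-implemented in Python 3.11.15 (numpy 2.4.6, 6 phases, 5 widths, 1000000 shuffled series), and the interaction in edgeR stood in for the authors' differential rhythmicity package. The SE of a log2 fold change came from its F statistic, and 95% intervals from a normal approximation. The GC slope of a library is that of log2 CPM, as deviations from each gene's mean, on the GC content of each gene's longest transcript. It was fitted without length over the more highly expressed of the 18377 genes with a GC content. The trend removed by the GC and length correction was a separate fit on GC content, length and their squares. Levels per kilobase used the exonic length in Gencode M21, and promoters came from RefSeq.

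Depth, from 7773117 to 22147398 counted reads, gave every member at least 85.5 normalized counts per library. Every script with a test across genes was tested on simulated data.

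The members, the lists and the genes named by rule (list genes past the threshold between genotypes or among the 3 smallest adjusted rhythm p-values, and the 8 genes most and 3 least like the members) were chosen with earlier results of these data known, and 2 genes that the rule names are not reported here. Libraries were checked for duplicates, and all 113 pairs of replicates differed by more than sampling noise. The study's methods call the libraries of a group biological replicates.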

Additional observations from a re-analysis of the deposited data

Results flagged for a closer look

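Within the 108 groups formed by the 9 genes and the 12 combinations of genotype and time point, 9 values stood far from the rest of their group by Dixon's gap test, where chance gives about 1 group in 20. They came from 7 libraries, and since the genes move together the values are not independent.

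In diabetic replicate 3 at ZT17, Nefm (2232 normalized counts, others 1609 to 1706) and Nefh (1540, others 1102 to 1160) were both high. In diabetic replicate 4 at ZT5, Sncg (887, others 500 to 601) and Thy1 (2545, others 1607 to 1734) were both high. Nefl was high in diabetic replicate 1 at ZT1 (6361, others 4723 to 4955) and replicate 3 at ZT9 (6184, others 4528 to 4972), and low in diabetic replicate 5 at ZT5 (4233, others 5493 to 5998). Pou4f1 was low in diabetic replicate 2 at ZT21 (421, others 520 to 557) and Rbpms in control replicate 2 at ZT9 (282, others 374 to 398).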

How the results depend on the processing

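Under all alternatives run, 0 of the 9 genes passed between genotypes over all time points, at single time points, in the interaction with the rhythm, and among time points in control retinas. Among time points in diabetic retinas, 1 gene (Pou4f1) passed with the replicate block, 3 with the GC and length correction, and 0 to 1 without 1 library.

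By the rhythm criterion, the main counts of 0 in control and 2 in diabetic retinas depended on the setting. In control retinas 2 genes were called by an edgeR cosine model (25.4% of all genes at an unadjusted p under 0.05), 4 by that model with the replicate block (27.2%), 1 without ZT1 (21.8%), 1 without ZT13 (21.7%), and 0 to 1 without 1 library. In diabetic retinas 4 were called with the GC and length correction (27.7% of all genes), 0 after Benjamini-Hochberg adjustment (9.89%), 4 without ZT5 (21.9%), 1 without ZT9 (21.1%), 0 without ZT13 (21.1%), 0 without ZT17 (16.3%), 0 without ZT21 (16.4%), and 1 to 4 without 1 library. The cause was not tested.

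Of the log2 fold changes between genotypes, those of Sncg (-0.031 without ZT5, and -0.015 to 0.045 without 1 library), Nefh (-0.038 to 0.010 without 1 library), Pou4f2 (-0.0043 without ZT5) and Slc17a6 (-0.0044 without ZT17) changed sign.

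Libraries of the same number had deviations correlated between -0.40 and 0.78 in control and diabetic retinas of a time point, with 19 of 26 above 0.1. Among the 4 to 6 libraries of the other genotype at their time point, 26 of 52 libraries correlated best with that of their own number. Numbers were to be taken as pairs only if every such correlation was above 0.1, and the main tests therefore assumed no pairing. Whether libraries of the same number share a batch was not tested. With same-numbered pairs as blocks, 1153 of all genes were called between genotypes over all time points, beside 572 in the main fit. The replicate block changed no other count of the 9 genes past 1.5 times.

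Over all genes, 572 were called between genotypes, 431 to 611 without 1 library, 225 to 426 without 1 time point and 387 to 1530 in the other settings, the most with time point as a covariate and the GC and length correction. At ZT17, 32 were called, 3 without diabetic replicate 5, 96 without diabetic replicate 1 and 136 with the GC and length correction. Among time points, 1733 were called in control (1239 to 2442 over the alternatives) and 1948 in diabetic retinas (1407 to 3081), and by the rhythm criterion 4172 (2532 to 5212) and 4565 (2710 to 5592). The SE of up to 0.22 (log2) at single time points limits what can be seen in 1 ganglion cell gene there, while every member had at least 85.5 normalized counts in every library.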
